A study of Homo sapiens with 6 samples.

Results

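The genes described here are 10 genes that are commonly used as readouts of serum response factor (SRF) and of the Hippo pathway effector YAP. They are ACTA2, TAGLN, CNN1, CNN2, MYL9, TPM1 and TPM2, which encode proteins of the smooth muscle contractile apparatus and of the actin cytoskeleton, and CCN1, CCN2 and ANKRD1, which are standard targets of YAP. All 10 were found by symbol among the 16760 genes of the table. They were chosen by name with the knockout against WT values of these same libraries known. Their differences are therefore given as a description with a standard error (SE) and without a test. Counts of members past a threshold are a description too. RNA-seq was performed on H1975, a human lung adenocarcinoma cell line, with 3 libraries of the YTHDC2 knockout genotype and 3 of the WT genotype and no other allele or agent named in the labels. YTHDC2 is an RNA helicase with a YTH domain that reads N6-methyladenosine in RNA. The knockout was made with a CRISPR plasmid, and whether the knockout cells were 1 clone is not given in the sources used here. The study describes its replicates as biological, but the labels do not say that the libraries came from separate cultures, so p-values measure the spread between these libraries, part of which may be technical.

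SRF is a transcription factor that binds CArG boxes, and its cofactors of the MRTF family are held in the cytoplasm by monomeric actin and enter the nucleus when actin polymerises. YAP and its relative TAZ carry no DNA-binding domain and act through the TEAD factors, and the kinases LATS1 and LATS2 of the Hippo pathway keep them out of the nucleus. Both routes respond to cell shape and adhesion and share part of their targets. ACTA2 is the classical marker of smooth muscle cells and myofibroblasts, and tumour cells that take on mesenchymal traits can also express it.

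Promoter sequence of the members was read from RefSeq (GRCh38.p14) as the 250 bases before the annotated start. Entries were found for 7 of the 10 members, in 9 windows, and none was used for TAGLN, MYL9 and CCN1. The windows were searched on both strands for the CArG box, for the same box with 1 inner C or G in place of an A or T, and for the TEAD motif GGAATG. The 4 windows shown here are the ones with a match, from genes whose levels differed in opposite ways or by little between the genotypes, and capitals mark the matches. The lines are written 5′ to 3′ in the direction of the gene. ACTA2 is given for its inner start, at chr10:88952774-88953023 on the minus strand. ANKRD1 is at chr10:90921088-90921337 on the minus strand, CCN2 at chr6:131951373-131951622 on the minus strand and CNN2 at chr19:1026358-1026607 on the plus strand.
ACTA2: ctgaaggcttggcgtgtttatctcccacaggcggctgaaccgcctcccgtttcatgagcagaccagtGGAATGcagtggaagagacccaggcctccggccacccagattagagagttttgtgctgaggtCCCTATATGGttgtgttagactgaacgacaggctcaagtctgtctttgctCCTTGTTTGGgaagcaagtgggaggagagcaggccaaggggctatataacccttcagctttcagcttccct
ANKRD1: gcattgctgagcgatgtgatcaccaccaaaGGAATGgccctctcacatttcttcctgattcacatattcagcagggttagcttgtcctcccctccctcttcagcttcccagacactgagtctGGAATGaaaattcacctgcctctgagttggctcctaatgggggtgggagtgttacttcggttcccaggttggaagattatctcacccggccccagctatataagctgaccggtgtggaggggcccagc
CCN2: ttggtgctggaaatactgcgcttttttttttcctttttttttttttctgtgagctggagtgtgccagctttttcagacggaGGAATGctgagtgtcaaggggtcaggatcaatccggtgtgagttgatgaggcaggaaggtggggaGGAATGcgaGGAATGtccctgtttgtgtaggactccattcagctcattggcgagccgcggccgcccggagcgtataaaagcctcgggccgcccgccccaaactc
CNN2: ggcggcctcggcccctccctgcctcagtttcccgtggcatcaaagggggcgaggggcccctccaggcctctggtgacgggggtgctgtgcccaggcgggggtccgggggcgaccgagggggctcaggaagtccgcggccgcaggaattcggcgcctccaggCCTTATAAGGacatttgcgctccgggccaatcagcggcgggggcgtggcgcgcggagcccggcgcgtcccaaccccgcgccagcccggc

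The ACTA2 window held 2 CArG boxes with 1 inner C or G, which ended 112 and 62 bases before the start, and 1 TEAD motif. ANKRD1 held 2 TEAD motifs and CCN2 held 3. CNN2 held 1 CArG box, and it was the only window of the members with an unaltered box. No match was found in the windows of CNN1, TPM1, TPM2 or the outer start of ACTA2. Among 35116 RefSeq promoters of this length, 1.16% held a CArG box, 5.96% held the box with 1 inner C or G and 11.9% held the TEAD motif. A match is a stretch of letters and not a bound site, and the absence of a match concerns these 250 bases only.

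Across the 10 members the genotypes differed by very unequal amounts. ANKRD1, ACTA2 and MYL9 were far lower in the knockout, CNN2 was higher, and the other members differed by less than 0.35 on the log2 scale. Levels are given as FPKM, fragments scaled to gene length and library depth, and log2 differences were taken on log2(FPKM + 0.1), knockout minus WT. In the fit across 15441 genes with limma, 3 members passed an adjusted p under 0.05 with a log2 difference beyond 1, all lower in the knockout (ACTA2, MYL9 and ANKRD1), against 1.99% of all genes lower and 0.732% higher. Because the members were picked with this contrast in view, nothing is read from that count or share. The median difference was -0.25 over the 10 members and -0.09 over all tested genes.

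**Figure D1:**
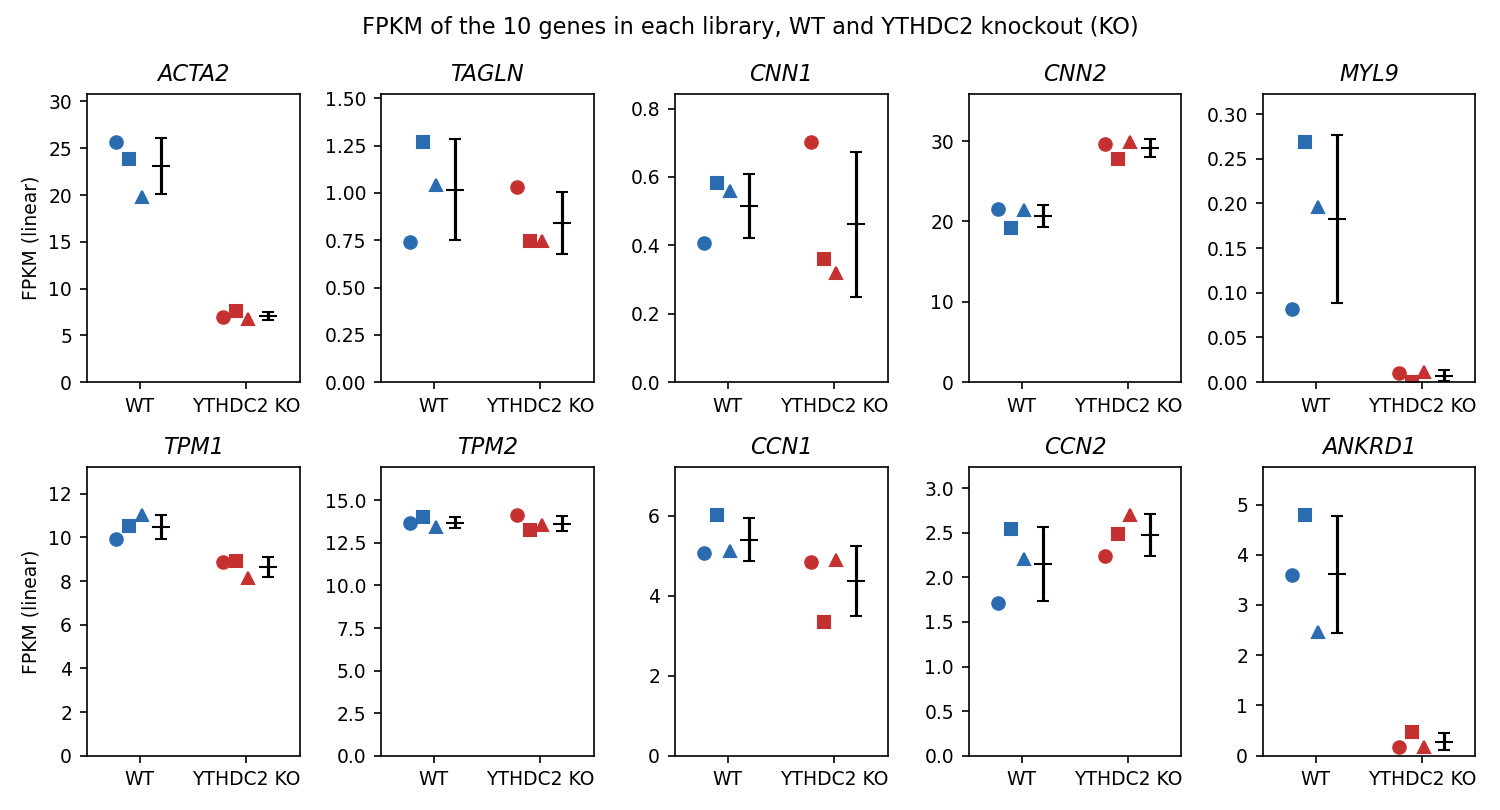
FPKM on a linear axis from 0 for each of the 10 genes, with 1 panel per gene and its own scale, for WT (blue) and YTHDC2 knockout (red) libraries; circles, squares and triangles are libraries 1, 2 and 3, and black marks are the mean with the SD of 3 libraries. ACTA2, MYL9 and ANKRD1 are lower in all 3 knockout libraries, CNN2 is higher, and TAGLN, CNN1, TPM2 and CCN2 overlap between genotypes.

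ACTA2 (chromosome 10, 88935074 to 88991339, minus strand, GENCODE 29 on GRCh38) encodes smooth muscle alpha-actin. It was measured at 25.7, 23.8 and 19.8 FPKM in WT libraries 1, 2 and 3 and at 6.97, 7.60 and 6.79 FPKM in the knockout libraries. The groups were far apart, and within WT the third library was the lowest. The mean was 23.1 ± 3.01 FPKM in WT and 7.12 ± 0.426 FPKM in the knockout (SD, n = 3 each), a 3.25-fold lower level and a log2 difference of -1.68 (SE 0.10). The values rest on 3724 fragments in WT and 1288 in the knockout.

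In WT cells ACTA2 was the most abundant of the 10 genes per kilobase, with a range that overlapped that of CNN2. In the knockout it stood below CNN2, TPM2 and TPM1, with no overlap with its neighbours in that order. In a bulk library, fewer cells with a transcript and less transcript per cell cannot be told apart, and this holds for each gene described here.

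Transcripts of ACTA2 start at 2 separate places in the annotation. The outer start, at 88991339, lies beside the starts of FAS, a death receptor gene on the opposite strand, and ACTA2 and FAS share 758 bases there. STAMBPL1, a deubiquitinase gene on the opposite strand, shares 40080 bases with ACTA2. FAS was at 1.55, 2.06 and 1.74 FPKM in WT and at 0.383, 0.517 and 0.634 FPKM in the knockout and fell by 1.64 on the log2 scale (SE 0.19, limma adjusted p = 2.71e-04). STAMBPL1 differed by -0.81 (SE 0.17, limma adjusted p = 0.00538), short of the threshold of 1. FAS and STAMBPL1 were chosen after their values were seen. The strand setting of the counting is not given in the sources used here, so fragments from the shared bases cannot be told apart.

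MYL9, a regulatory light chain of myosin II of smooth muscle and nonmuscle cells, was barely detected in either genotype. WT libraries 1, 2 and 3 held 7, 23 and 15 fragments of it, equal to 0.0824, 0.269 and 0.196 FPKM. The knockout libraries held 1, 0 and 1 fragments, equal to 0.0105, 0 and 0.0110 FPKM. The groups did not overlap, and WT library 2 was highest. Per fragment sequenced, the knockout level was 0.0394 times that of WT, with a 95% counting interval of 0.00463 to 0.151 (exact Clopper-Pearson, counting error only). The log2 difference of -1.34 (SE 0.27) depends on the pseudocount at this depth. It was -3.42 with a pseudocount of 0.01 and -0.23 with 1.

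CNN2, a calponin of nonmuscle cells that binds actin, went the other way. It was at 21.6, 19.1 and 21.4 FPKM in WT and at 29.7, 27.8 and 29.9 FPKM in the knockout. Every knockout library was above every WT library. The mean rose from 20.7 ± 1.35 to 29.2 ± 1.15 FPKM (SD, n = 3 each), a log2 difference of 0.49 (SE 0.06), which was 0.36 after a correction for GC content and 0.63 after scaling to the median gene. CNN2 was the most abundant member in the knockout.

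CNN1, the calponin that marks differentiated smooth muscle, was low and spread widely. It was at 0.408, 0.582 and 0.558 FPKM in WT and at 0.703, 0.361 and 0.319 FPKM in the knockout. The first knockout library was above all WT libraries and the other two were below them. The log2 difference was -0.18 (SE 0.27), and leaving out single libraries moved it from -0.47 (without knockout library 1) to -0.01 (without knockout library 3).

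TAGLN encodes transgelin (SM22), an actin-bundling protein whose gene is among the best known SRF targets. It was at 0.739, 1.27 and 1.04 FPKM in WT and at 1.03, 0.747 and 0.744 FPKM in the knockout. The groups overlapped, and the log2 difference of -0.23 had an SE of 0.21. Its 3′ end shares 446 bases with PCSK7 on the opposite strand, which was at 5.75 ± 0.0432 FPKM in WT and 5.80 ± 0.420 FPKM in the knockout (SD, n = 3 each) and was named for this overlap.

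The tropomyosins TPM1 and TPM2 encode coiled-coil proteins that lie along the actin filament. TPM1 was at 9.91, 10.5 and 11.0 FPKM in WT and at 8.89, 8.94 and 8.13 FPKM in the knockout. The groups did not overlap, with a log2 difference of -0.27 (SE 0.07). TPM2 was at 13.7, 14.0 and 13.4 FPKM in WT and at 14.1, 13.3 and 13.5 FPKM in the knockout. Its groups overlapped, and its difference of -0.01 (SE 0.06) took either sign under the other scalings, from -0.13 with a GC correction to 0.13 with median scaling.

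ANKRD1 encodes a stress-induced ankyrin repeat protein of muscle, and its transcript is one of the most widely used YAP readouts. It is also on chromosome 10 (90912096 to 90921276, minus strand). It was at 3.59, 4.79 and 2.46 FPKM in WT and at 0.180, 0.469 and 0.172 FPKM in the knockout. Each WT library was above each knockout library, and knockout library 2 was the highest of its group. The mean was 3.61 ± 1.17 FPKM in WT and 0.274 ± 0.170 FPKM in the knockout (SD, n = 3 each), 13.2-fold lower, with a log2 difference of -3.35 (SE 0.32).

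The knockout value of ANKRD1 rests on 49 fragments against 580 in WT. The ratio moved with single libraries, from 11.1-fold lower without WT library 2 to 20.6-fold lower without knockout library 2. With a pseudocount of 1 the log2 difference was -1.83. In WT the range of ANKRD1 overlapped that of CCN2, whereas in the knockout it overlapped that of CNN1.

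CCN1 and CCN2 encode secreted matricellular proteins, formerly CYR61 and CTGF, which are the best known transcripts induced by YAP and are also bound by SRF. CCN1 was at 5.07, 6.01 and 5.11 FPKM in WT and at 4.85, 3.35 and 4.89 FPKM in the knockout. The groups did not overlap, but knockout libraries 1 and 3 lay close to WT, and the log2 difference of -0.32 (SE 0.15) was -0.14 without knockout library 2 and -0.41 without knockout library 3. CCN2 was at 1.71, 2.54 and 2.21 FPKM in WT and at 2.24, 2.49 and 2.70 FPKM in the knockout. Its groups overlapped, with a log2 difference of 0.21 (SE 0.15). The CCN2 window printed above holds more TEAD motifs than the ANKRD1 window. The ANKRD1 difference was -3.35 and the CCN2 difference was 0.21. Whether these motifs bear on either difference was not tested.

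The 10 genes therefore did not share 1 pattern over the 6 libraries. Groups did not overlap for 6 of them, with the knockout below WT for ACTA2, MYL9, TPM1, CCN1 and ANKRD1 and above WT for CNN2, and among all tested genes 33.1% were below and 20.7% above without overlap. At an adjusted p under 0.05 with no minimum difference, 4 members were lower and 1 was higher, against 26.2% and 16.6% of all genes. Nothing is read from these counts, because the members were picked with the contrast known. Within WT, library 2 was the highest for 7 of the 10 members, library 1 for ACTA2 and CNN2, and library 3 for TPM1.

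Fold changes over all genes moved with the GC content of the transcript. The median log2 difference was -0.35 among transcripts of 30.2% to 38.7% GC and 0.25 among those of 62.2% to 76.8% GC, at either end of 10 classes of equal size. ACTA2 (51.8% GC) lay in a class with a median of -0.03, ANKRD1 (43.3%) in one with -0.25 and MYL9 (60.5%) in one with 0.14. After subtraction of the GC trend in each library the differences were -1.73 for ACTA2, -3.19 for ANKRD1 and -1.57 for MYL9, as large as before to within 1 SE.

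**Figure D2:**
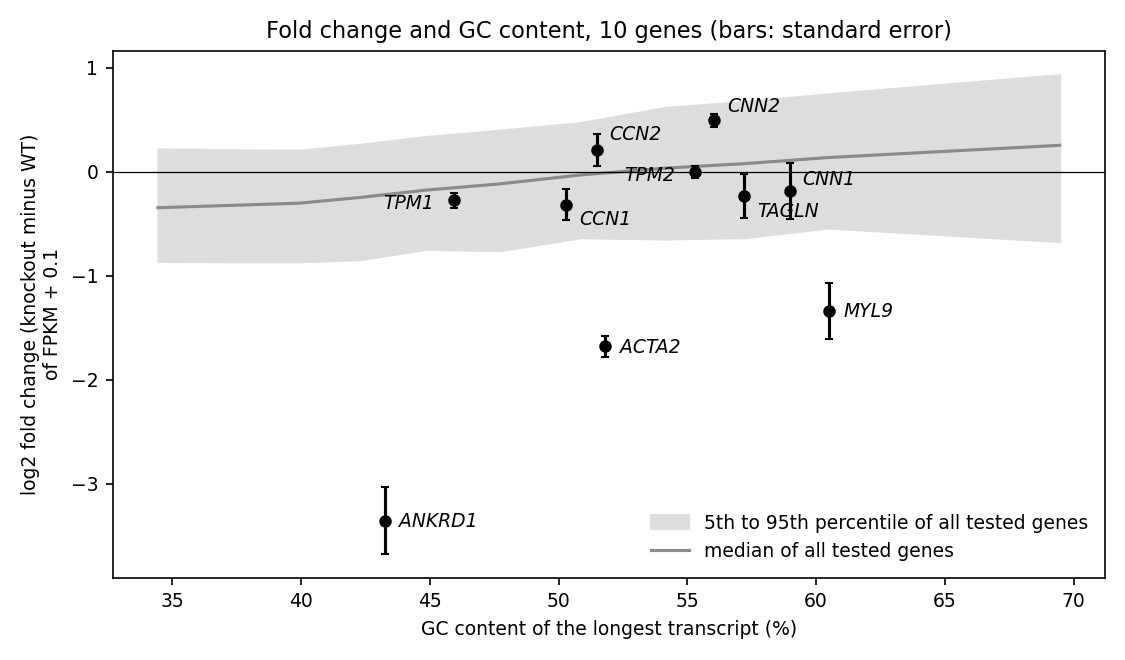
Log2 difference (knockout minus WT, of FPKM + 0.1) against the GC content in percent of the longest transcript, for the 10 genes with their standard errors; the grey line and band are the median and the 5th to 95th percentiles of all tested genes in 10 classes of GC content. ACTA2, ANKRD1 and MYL9 lie below the band and the other 7 genes lie within it.

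The third WT library stood apart in the targeted gene. YTHDC2 was at 13.0, 17.1 and 201 FPKM in WT and at 7.82, 8.92 and 8.14 FPKM in the knockout, a log2 difference of -2.09 (SE 1.17, limma adjusted p = 0.228) and of -0.84 without WT library 3. Its transcript was still counted in every knockout library, and the edited bases were not analysed here. Without WT library 3 the differences were -1.79 for ACTA2, -3.60 for ANKRD1 and -1.28 for MYL9. The FPKM values were scaled to 32499448 to 34210901 fragments in the knockout and 27505821 to 30675267 in WT.

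Of 12 lung epithelial markers, 11 were in the table and 6 averaged under 1 FPKM. KRT8 and KRT18, keratins of simple epithelia, were at 82.5 and 60.8 FPKM in WT and at 97.7 and 73.2 FPKM in the knockout. They were above WT in every knockout library, by 0.24 and 0.27 on the log2 scale (SE 0.06 and 0.05, limma adjusted p = 0.00711 and 0.00175). The defining epithelial marker EPCAM averaged 0.818 FPKM in WT and 0.246 FPKM in the knockout, and KRT19 averaged 1.02 and 0.0142 FPKM. Both fell past both thresholds, EPCAM at -1.41 and KRT19 at -3.28 (SE 0.20 and 0.22, limma adjusted p = 6.79e-04 and 2.82e-05). Each averaged under 1 FPKM over the 6 libraries. EPCAM rests on 113 fragments in WT and 38 in the knockout, and KRT19 on 127 and 2. The other detected markers were CDH1, KRT7, CLDN4, MUC1, NKX2-1, NAPSA and ELF3, at means from 0.0593 to 2.41 FPKM in either genotype. Of these, KRT7 (-0.96), ELF3 (-0.81) and CLDN4 (-0.64) were lower at limma adjusted p-values of 0.0234, 0.0472 and 0.0483. CDH1 (0.32), NKX2-1 (0.09), NAPSA (0.02) and MUC1 (-0.48) overlapped between genotypes. The summed level of the list, which is mostly KRT8 and KRT18, was 174 to 182 FPKM in the knockout and 146 to 159 FPKM in WT.

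ACTA2 is also a marker of fibroblasts and pericytes. The 9 other markers of these cells summed to 22.5 to 23.5 FPKM in the knockout and 22.6 to 23.4 FPKM in WT, and 6 of them averaged under 1 FPKM. These were PDGFRA, PDGFRB, THY1, LUM, DCN and POSTN, while COL3A1 was at 14.3 FPKM in WT and 15.4 FPKM in the knockout, COL1A1 at 6.21 and 6.02 FPKM, and RGS5 at 1.26 and 0.811 FPKM. Most of the sum was COL3A1 and COL1A1, and without them it was 1.18 to 1.79 FPKM in the knockout and 2.13 to 2.72 FPKM in WT, with no overlap. RGS5 was the largest part of this remainder in both genotypes. The log2 difference was below 0 for 8 of the 9 markers, among them LUM at -0.02 (SE 0.24). The share of all tested genes below 0 is not given here, and their median was -0.09. No marker of the 9 but RGS5 had a limma adjusted p under 0.05. Every knockout library was below every WT library for 3 of the 9, against 33.1% of all tested genes. These were RGS5 (-0.60, SE 0.20, limma adjusted p = 0.0415), THY1 (-0.58, SE 0.23, limma adjusted p = 0.0746) and COL1A1 (-0.04, SE 0.07, limma adjusted p = 0.67). COL3A1 was above WT in every knockout library (0.10, SE 0.06, limma adjusted p = 0.222). The libraries were made from the H1975 cell line, and the presence of any such cells in them was not tested.

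The remaining genes of these pathways were taken from 7 lists with 123 genes, of which 119 were tested and none is a member. Of the 119, 4 fell, 1 rose and 114 did not pass both thresholds, against 1.99% of all tested genes lower and 0.732% higher. The median log2 difference of the 119 was -0.10, against -0.09 over all tested genes. THBS1, ACTA1 and IGFBP3 were among those that fell. The 4 genes that fell averaged under 1 FPKM over the 6 libraries, and with a pseudocount of 1 each stayed under the threshold of 1. At an adjusted p under 0.05 with no minimum difference, 35 of the 119 were lower and 26 higher. Among all tested genes 26.2% were lower and 16.6% higher at that threshold.

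**Figure D3:**
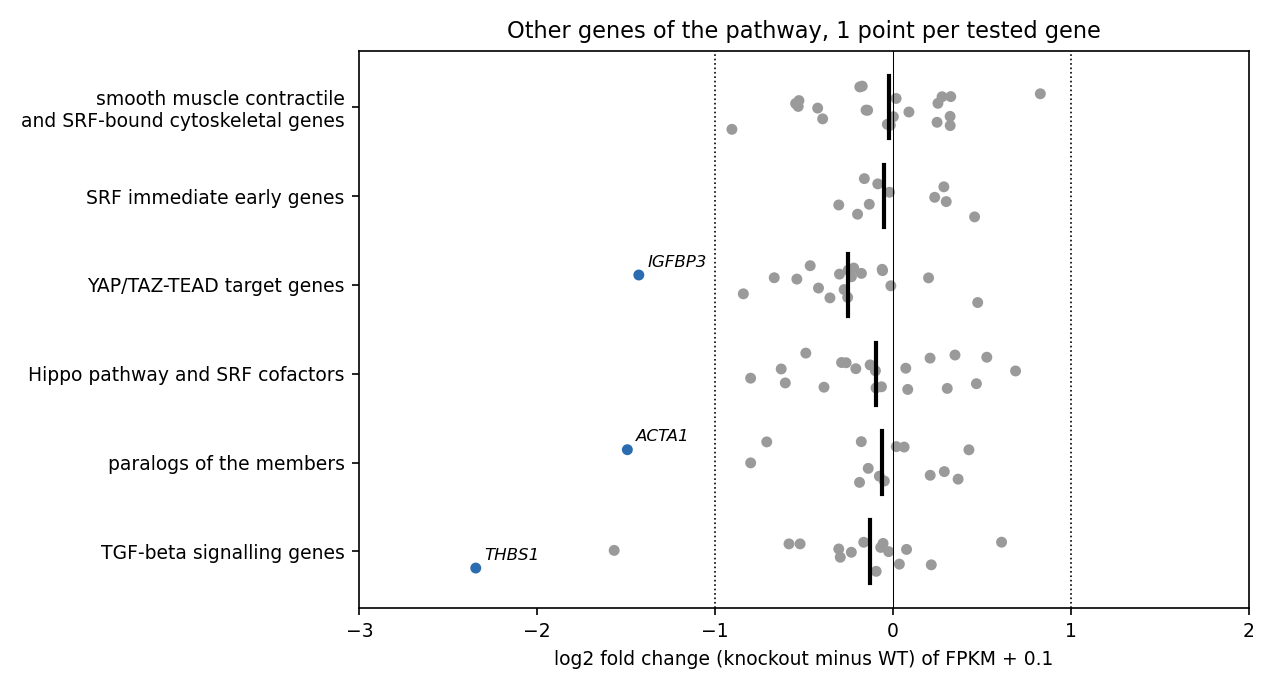
Log2 difference of FPKM + 0.1, knockout minus WT, for tested genes of 6 of the lists, with members left out; blue points passed both thresholds as lower, grey points did not, black bars are medians of the plotted genes and dotted lines mark -1 and 1. THBS1, ACTA1 and IGFBP3 are the plotted genes that passed.

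Among 22 other smooth muscle contractile and SRF-bound cytoskeletal genes, none passed both thresholds in the limma fit, 7 were lower and 5 higher at an unadjusted p under 0.05, against 31.3% and 19.4% of all tested genes, and the median was -0.02. By limma voom on whole fragments 1 was lower. That gene was FILIP1L, which was at -0.91 in the limma fit (SE 0.23, limma adjusted p = 0.0111). It also passed both thresholds without knockout library 1, without WT library 3 and with a pseudocount of 0.01. FILIP1L was low, at 0.215 FPKM in WT and 0.0697 FPKM in the knockout, on 129 and 47 fragments. CALD1, which encodes caldesmon, was at 20.8, 26.8 and 25.2 FPKM in WT and at 15.7, 17.2 and 16.5 FPKM in the knockout (-0.55, SE 0.09, limma adjusted p = 0.00157). LMOD1, an actin nucleator of smooth muscle, was at 2.83 ± 0.529 FPKM in WT and 5.04 ± 0.192 FPKM in the knockout (SD, n = 3 each), a log2 difference of 0.83 (SE 0.13, limma adjusted p = 0.00133). MYH11, smooth muscle myosin heavy chain, averaged 0.0904 FPKM in WT and 0.145 FPKM in the knockout. The genes of this list that are named here were chosen after their values were seen.

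SRF itself averaged 33.1 FPKM in WT and 26.7 FPKM in the knockout, with a log2 difference of -0.31 (SE 0.07, limma adjusted p = 0.00815). The list of 10 SRF immediate early genes, which includes SRF itself, held no gene past both thresholds by limma or limma voom. At an unadjusted p under 0.05 in limma, 2 were lower, SRF among them, and 2 higher, against 31.3% and 19.4% of all tested genes. Of the cofactors, MRTFA was at 12.3 FPKM in WT and 12.9 FPKM in the knockout, and MRTFB at 3.46 and 2.20 FPKM (-0.63, SE 0.11, limma adjusted p = 0.00168). MYOCD, the cofactor of muscle cells, was at 0 FPKM in each knockout library and at most 0.0229 FPKM in WT. These factors were named outside the rule for named genes.

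The YAP/TAZ-TEAD list held 19 tested genes besides the members, with a median of -0.25. IGFBP3, which encodes a binding protein of insulin-like growth factors, was at 0.324, 0.372 and 0.111 FPKM in WT and at 0.0222, 0.0114 and 0.0585 FPKM in the knockout. It fell by 1.43 on the log2 scale (SE 0.31, limma adjusted p = 0.00602) on 64 fragments in WT and 8 in the knockout. No other gene of the list passed both thresholds. With the adjusted p as the sole threshold 8 of its genes were lower and 1 higher, against 26.2% and 16.6% of all tested genes. The receptor kinase AXL was the next lowest, at -0.84 (SE 0.18, limma adjusted p = 0.00500), and was named after its values were seen.

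YAP1 was at 8.59 ± 0.381 FPKM in WT and 9.13 ± 0.822 FPKM in the knockout, and WWTR1, which encodes TAZ, at 7.58 ± 0.662 and 6.91 ± 0.293 FPKM (SD, n = 3 each), with overlapping groups for both. Among the 20 Hippo pathway and SRF cofactor genes none passed both thresholds by limma or limma voom, and at an unadjusted p under 0.05 there were 6 lower and 6 higher, where 31.3% and 19.4% of all tested genes were. The 4 TEAD genes did not move together. TEAD1 was lower (-0.61, SE 0.11), and TEAD2 (0.53, SE 0.07), TEAD3 (0.47, SE 0.12) and TEAD4 (0.69, SE 0.06) were higher, with limma adjusted p-values of 0.00264, 5.75e-04, 0.0106 and 1.11e-04. The kinase LATS1 was at 10.8 FPKM in WT and 6.11 FPKM in the knockout, at -0.80 (SE 0.10, limma adjusted p = 4.12e-04). These genes were named after their values were seen.

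The other actins did not follow ACTA2 as a group. ACTB was at 1089, 1026 and 985 FPKM in WT and at 938, 855 and 946 FPKM in the knockout, at -0.18 (SE 0.05, limma adjusted p = 0.0237). ACTG1 was at 1683, 1547 and 1554 FPKM in WT and at 2133, 2073 and 2223 FPKM in the knockout, at 0.43 (SE 0.05, limma adjusted p = 1.83e-04). ACTA1, skeletal muscle actin, was at 0.506, 0.525 and 0.512 FPKM in WT and at 0.157, 0.0805 and 0.124 FPKM in the knockout and fell by 1.49 on the log2 scale (SE 0.19, limma adjusted p = 4.69e-04). Actin genes have near-identical coding sequences, so the counting program could have split fragments between them, and the values of ACTA1 (68 fragments in WT, 18 in the knockout) and ACTG2 are uncertain for that reason. The same limit holds for ACTA2, which was far below ACTB and ACTG1 in both genotypes. ACTG2 averaged 0.167 FPKM in WT and 0.119 FPKM in the knockout.

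Of the other paralogs, TPM3, TPM4, CNN3, TAGLN2, MYL6, MYL12A and MYL12B were well expressed. Their log2 differences ran from -0.14 for TPM3 to 0.37 for MYL12A, with TPM4 at -0.05, CNN3 at -0.08, TAGLN2 at 0.21, MYL6 at 0.02 and MYL12B at 0.29. The light chains MYL12A (39.0 FPKM in WT, 50.1 in the knockout) and MYL12B (53.6 and 65.5 FPKM) were far above MYL9 per kilobase. CCN3 averaged 0.358 FPKM in WT and 0.154 FPKM in the knockout and ANKRD2 0.120 and 0.0399 FPKM, with no call in either, although CCN3 passed both thresholds without WT library 2. CCN4, CCN5, CCN6 and TAGLN3 averaged under 0.06 FPKM in both genotypes. Of the 14 paralogs tested, 1 passed both thresholds as lower, against 1.99% of all tested genes.

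TGF-beta is an inducer of ACTA2 in fibroblasts, and 17 genes of TGF-beta signalling were tested, with a median of -0.16. THBS1, thrombospondin 1, was at 0.957, 0.974 and 1.13 FPKM in WT and at 0.136, 0.0933 and 0.133 FPKM in the knockout and fell by 2.35 on the log2 scale (SE 0.18, limma adjusted p = 4.87e-05). It rests on 522 fragments in WT and 70 in the knockout. TGFBI differed by -1.57 (SE 0.59, limma adjusted p = 0.0576), and the value turned on single libraries. It was -2.32 without WT library 3 (limma adjusted p = 0.00231), -0.97 without WT library 2 (limma adjusted p = 0.177) and -1.31 without knockout library 3 (limma adjusted p = 0.170). The ligand TGFB1 was higher in the knockout, at 17.1 against 11.2 FPKM (0.61, SE 0.08, limma adjusted p = 6.21e-04). TGFBI and TGFB1 were named after their values were seen.

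ACTA2 and ANKRD1 lie 1920757 bases apart on the same arm of chromosome 10. In the window from 1 Mb before ACTA2 to 1 Mb after ANKRD1, which was chosen after these values were seen, 18 other genes were tested. Of these, 7 were lower past both thresholds, against 1.99% of all tested genes, and the other 11 had log2 differences from -0.81 to 0.08. Because the window was chosen with these values known, nothing is read from that share. The 7 were FAS, HECTD2, RPP30, which is the gene next to ANKRD1 (-1.08, SE 0.07), and the interferon-induced genes IFIT1, IFIT2, IFIT3 and IFIT5. IFIT2 (-6.07, SE 0.61), IFIT3 (-6.43, SE 0.60) and IFIT1 (-4.72, SE 0.46) differed more than either member. LIPA, whose annotated span holds IFIT1, IFIT2 and IFIT3 on the opposite strand, was at 0.04 (SE 0.08). Whether position bears on ACTA2 or ANKRD1 was not tested.

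**Figure D4:**
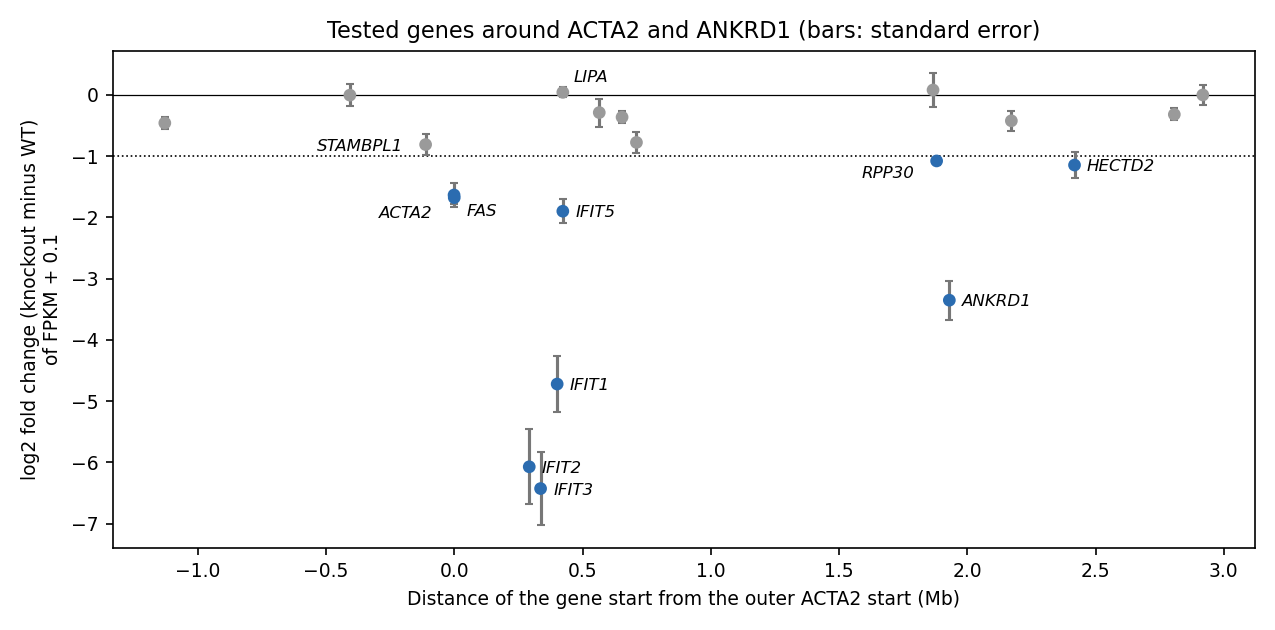
Log2 difference (knockout minus WT, of FPKM + 0.1) with its standard error for each tested gene from 1 Mb before ACTA2 to 1 Mb after ANKRD1, against the distance in Mb of the gene's start from the outer start of ACTA2; blue points passed both thresholds as lower, grey points did not, and the dotted line marks -1. The points that passed include ACTA2 and FAS at the same place, IFIT1, IFIT2, IFIT3 and IFIT5, and RPP30, ANKRD1 and HECTD2.

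Over the 6 libraries the 5 other genes averaging 1 FPKM or more whose log2 values were most like those of ACTA2 were DUSP14, MAPRE1, CDKN1A, HIF1AN and UNC119B, with Pearson r from 0.998 to 0.999. In each of the 5, as in ACTA2, the knockout libraries were below WT and WT library 3 was the lowest of WT. The 6 libraries form 2 genotypes, so the correlations describe that split as well and are not a test. CDKN1A, the cell cycle inhibitor p21, was the only one past both thresholds, at 71.6, 63.2 and 57.9 FPKM in WT and at 28.3, 29.3 and 28.0 FPKM in the knockout (-1.16, SE 0.07, limma adjusted p = 2.32e-05). The others differed by -0.28 to -0.76. ANKRD1 itself had an r of 0.984 with ACTA2, and CNN2 had -0.97.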

How the data were processed

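RNA-seq of H1975 cells was analysed from 1 table in which the authors deposited FPKM values of 16760 genes in 6 libraries (3 YTHDC2 knockout, 3 WT, grouped by the genotype label). TRIzol was used for the RNA and a VAHTS Universal V6 kit for library preparation. The build is GRCh38.p13 per the labels. The aligner, the counter, the annotation, the gene lengths and the strandedness were not stated in the sources used here, and levels of different genes rest on the lengths the authors used. The FPKM values of all 16760 genes were whole multiples of 1 fragment within 0.001, so whole fragments were recovered. For a few genes such counts may be a common divisor of the true ones.

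Genes above 0 FPKM in at least 3 of 6 libraries (15441) were fitted with limma 3.58.1 (R 4.3.3, trend and robust moderation, no replicate block) on log2(FPKM + 0.1), and p-values were adjusted over all tested genes by Benjamini and Hochberg. The pseudocount understates the difference of low genes. Thresholds were an adjusted p under 0.05 and an absolute log2 difference above 1. The steps were tested on simulated data. Positions, overlaps and the GC content of the longest transcript came from GENCODE 29 (99.1% of symbols matched), and promoters from RefSeq. Tables and figures used Python 3.11.15, numpy 2.4.6, pandas 2.3.3, scipy 1.17.1 and matplotlib 3.10.9.

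The members, the 7 pathway lists and the 2 marker lists were chosen with earlier results of these data known. Named genes are the members, their paralogs, the markers, YTHDC2, up to 4 genes past both thresholds per list and the 5 genes most like ACTA2, and genes outside this rule are marked. Of these, 2 genes past both thresholds and the values of 1 list are not reported here, although they are in the counts over all lists. Alternatives were other pseudocounts, filters, scalings and moderation, a replicate block, limma voom on the recovered fragments, a GC correction, an adjusted p alone and leaving out each library. Intervals cover counting error only, and fragments without molecular identifiers are not independent molecules.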

Additional observations from a re-analysis of the deposited data

How the results depend on the processing

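The count of 3 members past both thresholds was obtained under 15 of 17 other settings. Since the members were picked with these values known, that count describes the processing and is not a test. With a pseudocount of 1 and with a filter at a mean of 1 FPKM it was 2, since MYL9 was lost. No member past both thresholds changed direction. Leaving out each library in turn kept ACTA2 between -1.79 and -1.60 and ANKRD1 between -3.70 and -3.13.

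The 307 genes called lower and 113 higher became 505 and 184 with a pseudocount of 0.01 and 69 and 29 with 1. The filter at a mean of 1 FPKM, which tested 11121 genes, gave 126 lower. Median scaling gave 228 lower and 194 higher and quantile normalization 206 and 195, and median scaling moved the median of all genes from -0.09 to 0.02. Limma voom gave 496 lower and the GC correction 56 higher. An adjusted p alone gave 4044 lower and 2563 higher. The 4 pathway genes called lower became 0 with a pseudocount of 1 and 0 with the filter at a mean of 1 FPKM, and 35 lower and 26 higher with an adjusted p alone. With a pseudocount of 1 the log2 differences were -0.29 for IGFBP3, -0.44 for ACTA1, -0.85 for THBS1 and -0.88 for FAS. YTHDC2 passed the threshold with limma voom only, at -2.07.

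Libraries of the same number had correlations of 0.21, 0.13 and -0.06 in their deviations from the group means. Pairs of different number ran from -0.27 to 0.17. These few values do not settle whether the replicate numbers pair the libraries. A replicate block gave 309 genes lower and 112 higher and 5 pathway genes lower, TGFBI being the added one, and 1 higher. It changed no other call named here.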
